A study of Homo sapiens with 2 samples.

Results

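Chromatin accessibility was examined at 10 genes that bring glucose into the cell and carry it through the first steps of glycolysis, in cells of the tongue squamous carcinoma line CAL27. The genes were SLC2A1, SLC2A3, HK1, HK2, GPI, PFKL, PFKM, PFKP, PFKFB3 and PFKFB4, 10 of 19974 protein-coding genes on chromosomes 1 to 22 and X. Every region of either deposited list that lay in the body of one of these genes or within 50 kb of either end was taken. This gave 122 merged regions of 130506 in all, from 113 listed regions in the lactate library and 98 in the untreated library. The study held 1 ATAC-seq library of CAL27 cells given 10 mM lactate for 24 h and 1 of CAL27 cells given no treatment. In ATAC-seq a transposase, Tn5, inserts adapters where chromatin is accessible, and sequenced tags pile up there. The comparison asks where accessibility differs once lactate is supplied.

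Glucose enters most cells through carriers of the SLC2A family and is phosphorylated by a hexokinase, which traps it inside. Glucose-6-phosphate isomerase then makes fructose-6-phosphate, and phosphofructokinase adds a second phosphate in the step that commits the sugar to glycolysis. The bifunctional PFKFB enzymes set the level of fructose-2,6-bisphosphate, the strongest known activator of phosphofructokinase. Many carcinomas run this pathway fast and release lactate, and several of its genes are known targets of HIF and MYC, which recognise ACGTG and CACGTG.

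With 1 library per group there was no replicate check, no test and no p-value, and every difference compares these libraries rather than the conditions. The lactate library held 15401276 tags and the untreated library 18248413. Height is the number of extended tags over the highest summit of a region, and the ratio divides lactate by untreated height after each is scaled to 1000000 total tags (the scaled height). Over all shared regions without narrow ones, the median ratio was 1.66, a shift of 0.73 on the log2 scale. A relative ratio was therefore also used, which divides the ratio by the median ratio of shared regions of about equal height, so that 1 means the same as other regions of that height. Intervals are exact at 95% and reflect counting error alone, and picking the highest summit and PCR copies of a molecule both add error beyond them. Of squamous epithelial marker genes, 9 of 11 had a region within 1 kb of a start in both libraries, with KRT14 and TP63 in neither. This held for 3 of 8 fibroblast, 4 of 7 leukocyte and 0 of 6 endothelial markers, and for 62.6% of all coding genes.

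The promoters on which the results turn are printed below from RefSeq (GRCh38.p14, 250 bases before to 50 after an annotated start, written 5′ to 3′ on the gene's own strand), with ACGTG on either strand in capitals. They were chosen for the tallest start in the RefSeq promoter table (SLC2A1), a pair of neighbouring starts with differing listings (HK2) and the stronger of both starts of PFKFB3. Also chosen were a start over which the lists break differently (PFKL) and a start with no region in either list (PFKFB4). The outer GPI start, with 121 lactate tags against 118 at SLC2A1, is not in that table and is not printed.
SLC2A1 (chr1:42958819-42959118, minus strand): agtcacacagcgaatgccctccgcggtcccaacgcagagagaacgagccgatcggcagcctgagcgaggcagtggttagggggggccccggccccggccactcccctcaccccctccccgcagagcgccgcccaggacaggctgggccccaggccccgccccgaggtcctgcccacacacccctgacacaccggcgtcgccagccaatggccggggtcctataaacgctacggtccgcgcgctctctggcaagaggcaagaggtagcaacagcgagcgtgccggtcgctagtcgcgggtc
HK2, outer start (chr2:74833877-74834176, plus strand): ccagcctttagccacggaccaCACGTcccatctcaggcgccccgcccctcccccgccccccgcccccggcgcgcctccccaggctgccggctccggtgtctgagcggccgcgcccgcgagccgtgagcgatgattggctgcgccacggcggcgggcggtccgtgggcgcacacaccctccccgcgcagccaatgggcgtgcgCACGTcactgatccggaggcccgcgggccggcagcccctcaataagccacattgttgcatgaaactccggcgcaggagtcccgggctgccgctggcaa
HK2, inner start (chr2:74834920-74835219, plus strand): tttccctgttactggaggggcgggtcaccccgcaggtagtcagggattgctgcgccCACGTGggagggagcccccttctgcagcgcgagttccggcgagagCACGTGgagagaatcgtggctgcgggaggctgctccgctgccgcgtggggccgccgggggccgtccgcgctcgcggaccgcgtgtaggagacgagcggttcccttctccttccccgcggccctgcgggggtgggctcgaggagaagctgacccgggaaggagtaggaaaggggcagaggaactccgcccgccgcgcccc
PFKFB3, inner start (chr10:6202682-6202981, plus strand): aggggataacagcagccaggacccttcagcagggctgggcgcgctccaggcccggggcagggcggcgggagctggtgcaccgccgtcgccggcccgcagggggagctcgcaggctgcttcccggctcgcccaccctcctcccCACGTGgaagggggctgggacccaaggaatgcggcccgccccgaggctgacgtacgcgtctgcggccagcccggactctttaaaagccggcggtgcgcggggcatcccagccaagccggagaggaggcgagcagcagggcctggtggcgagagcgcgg
PFKL (chr21:44299803-44300102, plus strand): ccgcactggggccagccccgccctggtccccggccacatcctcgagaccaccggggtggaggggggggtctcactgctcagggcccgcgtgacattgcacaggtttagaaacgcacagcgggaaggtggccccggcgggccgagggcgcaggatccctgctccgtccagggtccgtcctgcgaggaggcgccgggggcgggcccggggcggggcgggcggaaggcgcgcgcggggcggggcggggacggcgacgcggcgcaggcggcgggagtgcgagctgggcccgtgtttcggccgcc
PFKFB4, inner start (chr3:48556754-48557053, minus strand): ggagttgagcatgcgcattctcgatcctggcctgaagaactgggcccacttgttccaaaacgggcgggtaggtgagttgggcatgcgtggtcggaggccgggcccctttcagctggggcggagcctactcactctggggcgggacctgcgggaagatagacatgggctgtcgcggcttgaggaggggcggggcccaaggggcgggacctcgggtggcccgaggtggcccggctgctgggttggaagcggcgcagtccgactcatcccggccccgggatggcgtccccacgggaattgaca

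Across the 10 genes, 7 had a region within 1 kb of an annotated start in both libraries, 2 (PFKP and PFKFB4) in the lactate library alone and 1 (SLC2A3) in neither. The lactate library alone held a start region at 5.38% of all coding genes, and the untreated library alone at 0.601%, where it did so at 0 of the 10. In the 7 genes the strongest shared start region had the larger scaled height in the lactate library, as did 96% of shared start regions of all coding genes. At PFKL the direction turned, to a ratio of 0.89, with the summit nearest to the start. Relative to regions of equal height, 4 of the 7 stood above 1, 2 below and PFKM at 1, against 51.2% of genes above 1. None of the 7 reached a relative ratio of 1.5, which 9.66% of all genes did, and none fell to 1/1.5, which 7.24% did.

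Among the glucose carriers, SLC2A1, which encodes the widespread carrier GLUT1, had 1 of the tallest start regions of the group. It lay over the annotated start (chromosome 1, 42958469 to 42959516) with 118 summit tags in the lactate library and 51 in the untreated library, or scaled heights of 7.66 and 2.79. The ratio was 2.74 (1.96 to 3.89) and the relative ratio 1.40 (1.003 to 1.99), so that the lower bound of the counting interval lay barely above 1. By fold enrichment over local background, the lactate to untreated ratio was 1.76. The printed SLC2A1 promoter holds TATAAA and CCAAT but no ACGTG, the only form of HIF site sought.

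The rest of the SLC2A1 locus was open in both libraries. All 5 regions within the gene were shared, with relative ratios from 0.86 to 1.3 and a median of 0.94. The tallest of them (42936408 to 42937593) had 95 lactate and 67 untreated tags, a relative ratio of 0.86 (0.62 to 1.19). Of the 10 SLC2A1 regions, 9 were shared and 1, a flanking one of 6 tags, was listed in the lactate library alone, as 26% of all regions were.

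SLC2A3 encodes GLUT3, a carrier of high glucose affinity best known from neurons. No region lay within 1 kb of either end of the gene in either list, and since its strand was not in the promoter table both ends were searched. Its 1 internal region (chromosome 12, 7932969 to 7933696), 2491 bp inside the upper-coordinate end, had 52 lactate and 20 untreated tags. That gave a ratio of 3.08 (1.81 to 5.45) and a relative ratio of 1.73 (1.02 to 3.07). The related carrier gene SLC2A14 lies beside it, and the region at its start had 9 tags in each library. SLC2A3 and SLC2A14 are close copies of each other, so heights at both are uncertain where tags could come from either, and this was not tested.

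**Figure D1:**
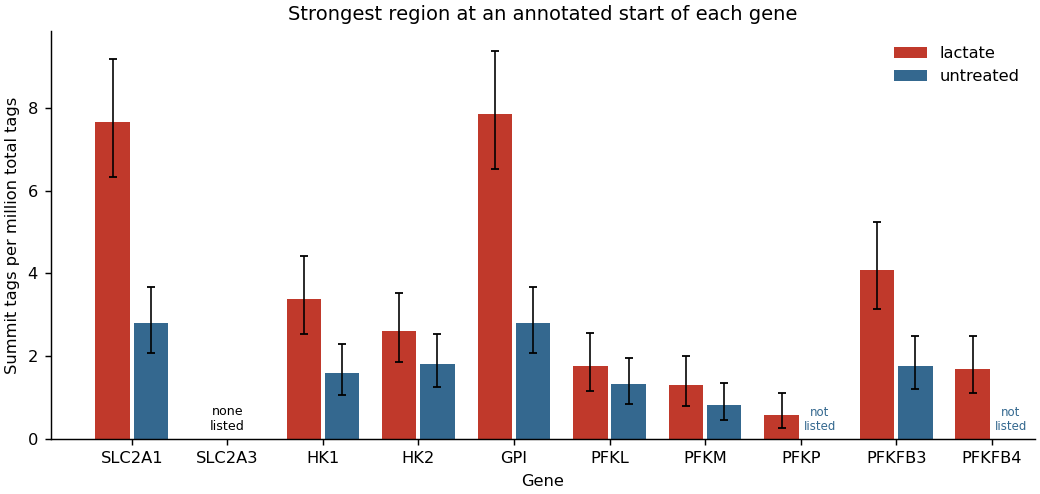
Summit tags per 1000000 total tags (y axis) at the strongest shared region within 1 kb of an annotated start of each gene, or the strongest region of 1 list where none was shared (x axis), lactate left in red and untreated right in blue; bars are single libraries and whiskers exact 95% Poisson intervals. GPI and SLC2A1 reach 7.86 and 7.66 in the lactate library, and both have 2.79 in the untreated library; PFKP and PFKFB4 have a listed region in the lactate library alone.

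HK1 and HK2 encode the hexokinases that bind the outer mitochondrial membrane; HK1 is widespread and HK2 is the form typical of muscle and many tumours. HK1 had 7 annotated starts. Both inner starts that lie in GC-rich sequence, at 69318181 and 69319064 on chromosome 10, shared 1 region (69317827 to 69319147) with 52 lactate and 29 untreated tags. Its relative ratio was 1.17 (0.73 to 1.91). No region was listed within 1 kb of the other 5 starts.

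Within HK1, 7 of 7 shared internal regions had a relative ratio above 1, from 1.13 to 1.94 with a median of 1.45. Over all coding genes, 44.6% of shared internal regions were above 1. The internal HK1 region tallest in both libraries (69348794 to 69349769), 14180 bp past the nearest start, had 116 lactate and 48 untreated tags, a relative ratio of 1.47 (1.04 to 2.1). The highest relative ratio was 1.94 (1.06 to 3.76) at 69392250 to 69392850, with 43 lactate and 15 untreated tags. The intervals of the other 5 shared internal HK1 regions included 1. Of 9 internal HK1 regions, the remaining ones were low and each listed in 1 library alone. These were an untreated-only region of 7 tags (69360653 to 69361023) and a narrow lactate-only region of 8 tags (69362774 to 69362993). Over all internal regions, 7.86% were untreated-only and 27.7% lactate-only.

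The flank beyond the 3′ end of HK1 ran the other way at 1 broad region. There (69438583 to 69440036) 47 lactate and 54 untreated tags gave a relative ratio of 0.56 (0.37 to 0.84). Beside it, 382 bp away from the nearest lactate region, an untreated-only region of 25 tags was listed. A second untreated-only region of 22 tags lay 603 bp from a lactate one.

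HK2 had a pair of starts on chromosome 2 and 3 start regions. The outer one (74833875 to 74834312), which covers the first HK2 sequence above, had 40 lactate and 33 untreated tags, a ratio of 1.44 (0.88 to 2.35) and a relative ratio of 0.81 (0.50 to 1.32). The inner one (74835383 to 74835639) had 28 and 27 tags, a relative ratio of 0.70. Between them the lactate list alone had a region of 19 tags (74834552 to 74835130), which reaches over most of the second HK2 sequence and lies 252 bp from an untreated region.

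The HK2 gene body held some of the tallest regions of the group. At 74845205 to 74846302, 10035 bp past a start, 144 lactate and 75 untreated tags gave a relative ratio of 1.13 (0.85 to 1.52). Of 7 shared internal HK2 regions, 3 stood above 1, against 44.6% over all coding genes, and the median was 0.85. At 74843944 to 74844268, 31 lactate and 34 untreated tags gave 0.62 (0.37 to 1.03), and at 74865898 to 74866309, 30 and 32 tags gave 0.63 (0.37 to 1.08). A broad region at 74887351 to 74888523 had 80 and 71 tags and stood at 0.68 (0.49 to 0.95). In the flank, at 74917755 to 74918153, 79 lactate and 26 untreated tags gave the highest relative ratio among taller regions away from starts, 1.94 (1.23 to 3.15). An untreated-only region of 16 tags was listed 143 bp from it.

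**Figure D2:**
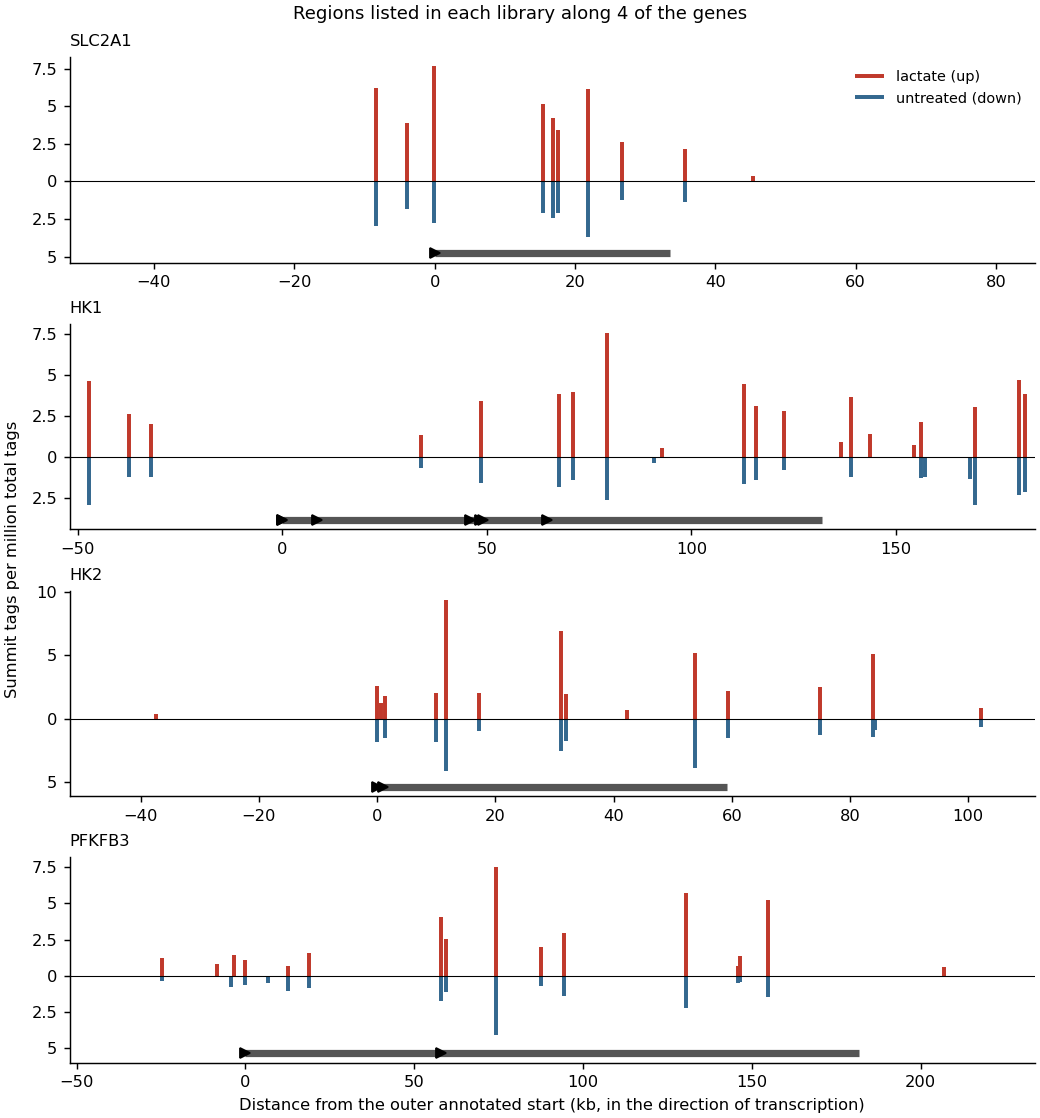
Summit tags per 1000000 total tags (y axis, lactate upward in red, untreated downward in blue) of each region along SLC2A1, HK1, HK2 and PFKFB3, by distance from the outer annotated start in kb; grey bars are gene bodies and arrowheads annotated starts. In the lactate library the tallest regions of HK1, HK2 and PFKFB3 lie within the gene, at 7.53, 9.35 and 7.53, and that of SLC2A1 at its start, while in the untreated library the tallest of SLC2A1 lies within the gene and those of HK1 in its flanks. Whether a flank region lies in the body of another gene was not checked.

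GPI, glucose-6-phosphate isomerase, had the tallest start region of the 10 genes in the lactate library. It covered the outer end of the gene (chromosome 19, 34358927 to 34359876) with 121 lactate and 51 untreated tags, a ratio of 2.81 (2.01 to 3.98) and a relative ratio of 1.44 (1.03 to 2.04). By fold enrichment over local background the ratio was 1.99. At the inner start, 34364992, the region had 20 and 15 tags and a relative ratio of 1. A further start region of 11 tags was listed in the untreated library alone, 374 bp from a lactate region.

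Within GPI lay the region with the lowest relative ratio of the group. At 34391271 to 34392205 there were 34 lactate and 55 untreated tags, a ratio of 0.73 (0.46 to 1.14) and a relative ratio of 0.40 (0.25 to 0.63). It was 1 of only 2 shared regions, of 84 around these genes, whose ratio of scaled heights was below 1. A lactate-only region of 20 tags lay 292 bp from an untreated region in the same stretch (34392498 to 34392697).

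The phosphofructokinase genes PFKL, PFKM and PFKP, named for liver, muscle and platelet, encode subunits of the tetramer that commits glucose to glycolysis. PFKL (chromosome 21) had 3 listed stretches around its single start. The lactate list alone had 31 tags at 44299901 to 44300157, over the start printed above, and the untreated list alone had 18 tags at 44299388 to 44299877. These stretches are 23 bp apart. The shared stretch at 44300315 to 44300785 had 27 lactate and 24 untreated tags, a relative ratio of 0.78 (0.43 to 1.40).

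PFKL had no region within its body in either list beyond those at the start. In its flank, 2070 bp before the start, 43 lactate and 44 untreated tags gave a relative ratio of 0.63 (0.41 to 0.99). The other 3 of its 5 shared regions, 2 in the flanks and 1 at the start of the neighbouring gene CFAP410, stood at 1.64, 1.33 and 1.32, and the median of the 5 was 1.32.

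PFKM (chromosome 12) had a low start region, which it shared with the neighbouring gene SENP1. At 48105557 to 48106552 there were 20 lactate and 15 untreated tags, a relative ratio of 1 (0.49 to 2.1). Its 1 shared internal region had 25 and 17 tags (relative ratio 1.04). Of the 9 PFKM regions, 4 were lactate-only, against 26% of all regions, and 0 untreated-only, against 7.48%. The inner start at 48122647, in sequence of 46.3% G + C, had no region in either list.

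PFKP (chromosome 10) had the faintest start of the listed ones. Its 1 start region (3068487 to 3068686) had 9 tags in the lactate library and was not listed in the untreated library. The median height in the lactate list was 22 tags. Of its starts in the promoter table, the outer 3 lie in sequence of 65.3% to 79.7% G + C and the innermost, at 3104609, in 53.3%.

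By contrast an internal PFKP region was the tallest of the group by far. At 3085949 to 3086167 there were 750 lactate and 405 untreated tags, or scaled heights of 48.7 and 22.2, with a relative ratio of 1.09 (0.97 to 1.24). It is 219 bp wide with a single summit in each list, and so belongs to the class of narrow regions of 218 to 226 bp, of which the lactate list held 19679 and the untreated list 17010. By height it ranked 193 in the lactate list and 337 in the untreated list. Its relative ratio was taken against the same median as the HK2 region of 144 lactate and 75 untreated tags. Narrow regions are left out of that median, so 1.09 does not compare it with regions of its own height or class. Among the other 4 shared internal PFKP regions the relative ratios ran from 0.84 to 1.58.

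PFKFB3 and PFKFB4 encode bifunctional enzymes that make and break fructose-2,6-bisphosphate; PFKFB3 is the form whose kinase activity most outweighs its phosphatase activity. PFKFB3 (chromosome 10) was more open at its inner start, printed above, than at its outer one. The inner start had 63 lactate and 32 untreated tags at 6202478 to 6203437. The ratio was 2.33 (1.5 to 3.69) and the relative ratio 1.28 (0.82 to 2.02), while by fold enrichment over local background the ratio was 1.35. At the outer start, 6144921, the heights were 17 and 11 tags and the relative ratio was 1.18.

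Within PFKFB3, 8 of 10 shared internal regions stood above 1, against 44.6% over all coding genes, from 0.40 to 2.01 with a median of 1.27. The tallest (6218757 to 6219482) had 116 lactate and 75 untreated tags and a relative ratio of 0.91 (0.68 to 1.24). Further in, at 6299158 to 6300040, 96226 bp past the inner start, 81 and 27 tags gave 1.92 (1.23 to 3.09). The lowest relative ratio, 0.40 (0.17 to 0.91), was at 6157271 to 6158083, a low region with 10 lactate and 19 untreated tags. This region was the second shared one with a ratio of scaled heights below 1, at 0.62. An untreated-only internal region of 9 tags (6151539 to 6151766) was also listed, where 7.86% of all internal regions were untreated-only.

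PFKFB4 (chromosome 3) had no region within 1 kb of its inner start, 48556803, although the printed sequence is 68% G + C. The nearest shared region (48558210 to 48558773), 1407 bp before that start, had 24 lactate and 26 untreated tags and a relative ratio of 0.64 (0.35 to 1.15). The lactate-only region that counted as a PFKFB4 start (48564073 to 48564453, 26 tags) lay 937 bp outside the outer end, 48563136, and also within 1 kb of a start of UCN2. Of the 10 PFKFB4 regions, 4 were lactate-only and 0 untreated-only, where 26% and 7.48% of all regions were.

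**Figure D3:**
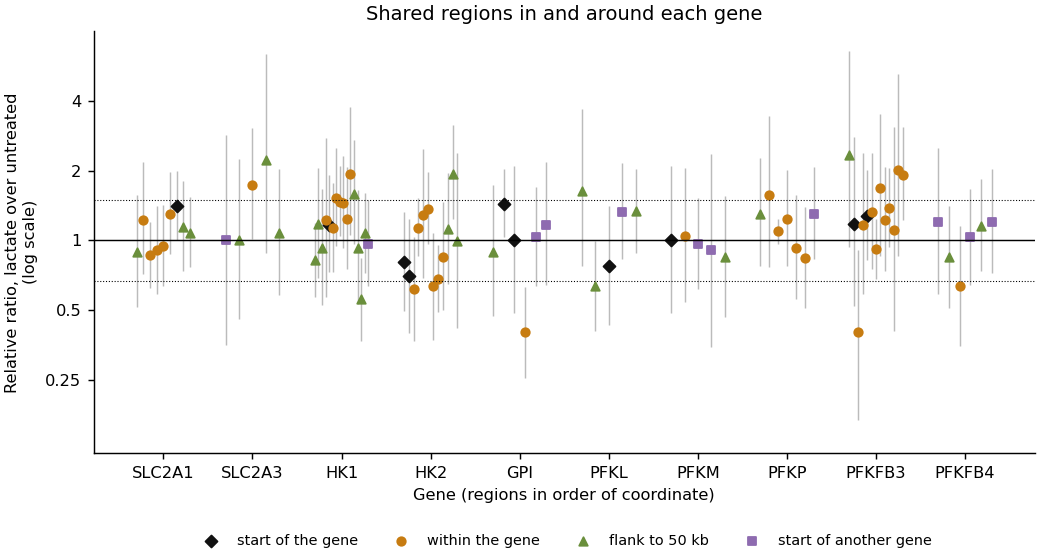
Relative ratio of lactate over untreated summit height (y axis, log scale) for the 84 shared regions by gene (x axis), with exact 95% counting intervals as grey lines; symbols give the place of the region, and dotted lines mark 1.5 and 1/1.5. The 7 shared internal regions of HK1 lie above 1, and the lowest points are internal regions of GPI and PFKFB3, both at 0.40.

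At the starts, taking the strongest shared region where a gene had one, the order of heights in the lactate library was GPI, SLC2A1, PFKFB3, HK1, HK2, PFKL, PFKFB4, PFKM and PFKP. Between neighbours in that order the counting intervals were apart at 1 step, SLC2A1 (6.34 to 9.18) against PFKFB3 (3.14 to 5.23). In the untreated library GPI and SLC2A1 both had 2.79, followed by HK2 with 1.81, PFKFB3 with 1.75, HK1 with 1.59, PFKL with 1.32 and PFKM with 0.82. No neighbours there differed beyond their counting intervals.

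Taking all places together, 84 of the 122 regions were shared. The lactate list alone held 27 (22.1%) and the untreated list alone 11 (9.02%). Over all regions of the series 26% were lactate-only and 7.48% untreated-only. With the lactate list cut by fold enrichment to the length of the untreated list, the order turned, with 10 lactate-only and 20 untreated-only regions. By construction such a cut can lower the lactate-only count and raise the untreated-only count, not the reverse. Shares over all regions were not taken at this setting. The lactate-only regions were low, with 6 to 31 tags and a median of 14, and the untreated-only ones had 7 to 25 with a median of 12. Within 1 kb of a region of the other list lay 6 of the 11 untreated-only and 4 of the 27 lactate-only regions. The lactate list was the longer one, with 122399 regions against 98152. The same shares over all regions of 1 library alone were not taken, so this contrast cannot be called particular to these genes.

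Of the 84 shared regions, 82 had a ratio of scaled heights above 1, against 88.7% of all shared regions. Their median ratio was 1.97 against 1.65, and their median relative ratio 1.12 against 0.98. Relative ratios ran from 0.40 to 2.33, the highest at a low PFKFB3 flank region with 19 lactate and 7 untreated tags (0.94 to 6.55). The relative ratio was above 1 at 51 of 84, against 45.3% of all shared regions. It was at least 1.5 at 12, against 10.7% of all, and at most 1/1.5 at 7, against 14.1%. The counting interval lay above 1 at 7 regions, where 4.03% of all shared regions did, and below 1 at 5, where 8.06% did. These shares over all regions include narrow regions, which the medians for equal height leave out. Without narrow regions, the relative ratio was above 1 at 49 of 82, against 48.2%, and its median was 1.12 against 1. It was then at least 1.5 at 11, against 8711 of 73366, and at most 1/1.5 at 7, against 8653.

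Of 16 start regions, 4 were lactate-only and 2 untreated-only, against 14.6% and 4.9% of start regions of all coding genes. The 10 shared start regions had a median ratio of 1.71 and a median relative ratio of 1.08, against 1.8 and 1 over shared start regions of all coding genes. The relative ratio was above 1 at 5 of these 10, against 49.5%, at least 1.5 at 0, against 9.47%, and at most 1/1.5 at 0, against 8.22%. Of 47 regions within the genes, 7 were lactate-only and 2 untreated-only, against 27.7% and 7.86% over all internal regions. Within the genes the 38 shared regions had a median ratio of 2.16 and a median relative ratio of 1.20, against 1.63 and 0.98 over all shared internal regions. The ratio itself was above 1 at 36 of the 38, against 87.9%. The relative ratio was at least 1.5 at 7, against 10.7%, and at most 1/1.5 at 5, against 14.7%. Of the 38 regions, 25 stood above 1, against 44.6% over all coding genes, and HK1 and PFKFB3 supplied 15 of them. The shares over all internal regions include narrow regions, which the medians for equal height leave out, and were not taken without them. Regions of 1 gene share their locus and are not replicates, and exons were not told from introns. The 11 shared regions at starts of neighbouring genes had a median relative ratio of 1.03, from 0.91 to 1.32.

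**Figure D4:**
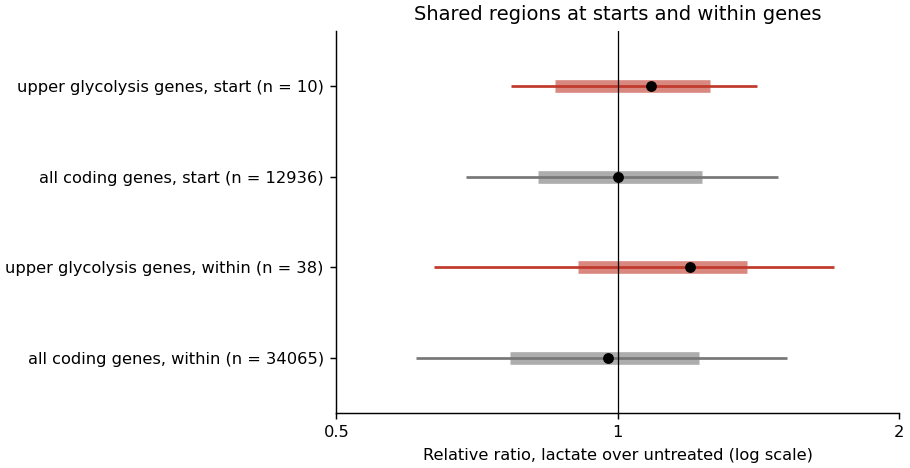
Relative ratio of lactate over untreated height (x axis, log scale) of shared regions at starts and within genes, for the 10 upper glycolysis genes in red and all coding genes in grey; dots are medians, thick bars the interquartile ranges and thin lines the 10th to 90th percentiles. Medians are 1.08 and 1 at starts, and 1.20 and 0.98 within genes, and the ranges overlap widely.

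Of 27 further carriers, hexokinases, regulators and lower glycolysis enzymes, 19 had a start region in both libraries, 0 in 1 library alone and 8 in neither. Their median relative ratio was 1.06, against 1.17 for the 7 upper glycolysis genes and 1.01 for all coding genes. A relative ratio of at least 1.5 was reached by 4, against 9.66% of all coding genes, and one of 1/1.5 or less by 0, against 7.24%. The 4, named after their values were seen, were the glycolytic genes PGK1 (1.6, 1.05 to 2.49) and ENO2 (1.88, 0.87 to 4.37), PFKFB2 (1.85, 1.18 to 2.98), a further bifunctional enzyme, and the intracellular carrier gene SLC2A8 (1.63, 1.19 to 2.27). The interval of ENO2 included 1, and that of ENO1, another enolase gene also named after its value was seen, lay below 1 (0.68, 0.49 to 0.94).

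The promoter table held 26 starts of 9 of the genes, with SLC2A3 not among them, and whether a start had a region went with its base composition. Of 16 starts with at least 60% G + C, 12 had a region within 1 kb in both libraries, 3 (all of PFKP) in the lactate library alone and 1 (PFKFB4) in neither. Of 10 starts below 60%, 3 had one in both libraries and 7 in neither. Over all coding starts in the table, the share with a region in both libraries was 72.3% at 60% or more, 55.4% from 50 to under 60% and 25.2% under 50%. Starts of 1 gene often share a region, so these are not independent.

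**Figure D5:**
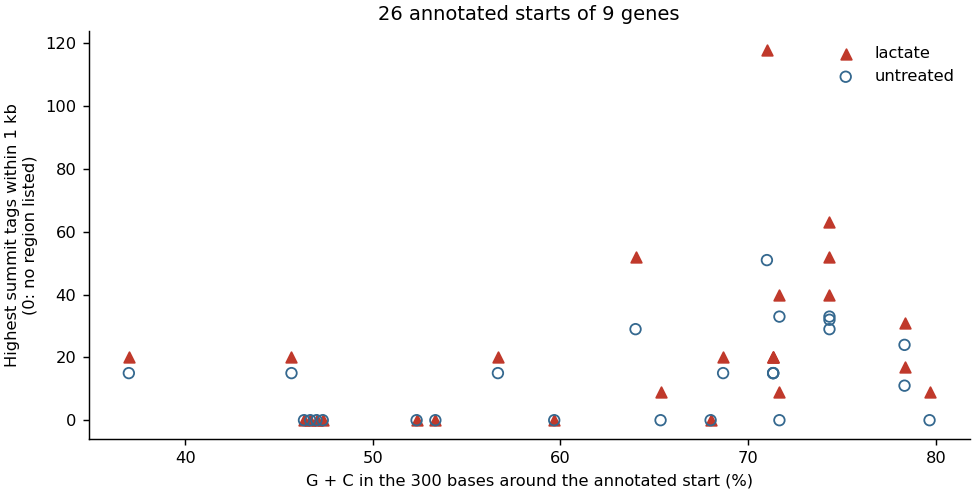
Highest summit tags within 1 kb of each of 26 annotated starts (y axis, 0 where no region is listed) against the G + C content of the 300 bases around it (x axis, %), lactate as red triangles and untreated as open blue circles. The outer GPI start is not in the table; the starts with the tallest regions, 63 tags or more in the lactate library, lie at 71% and 74.3% G + C.

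The motifs were searched on both strands of the same 26 windows. ACGTG was in 7 windows of 5 genes (HK2, GPI, PFKM, PFKP and PFKFB3), against 23.1% of 22132 windows of all coding genes in the table. CACGTG, which holds ACGTG on both strands, was in 2, the inner starts of HK2 and PFKFB3, against 8.34%. The inner HK2 window has it at 194 and 149 bases before the start and that of PFKFB3 at 108 bases, each counted to the first base of the match. GGGCGG was in 16 windows against 56.3%, CCAAT in 6 against 34.6%, TATAAA in 2 against 9.46%, TGANTCA in 2 against 6.15% and TGACGTCA in 0 against 2.26%. Other forms of the HIF site were not sought, so a window without ACGTG is not thereby without a HIF site. A match is a description of letters, and no binding was measured.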

How the data were processed

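CAL27 cells were profiled by ATAC-seq in 1 lactate and 1 untreated library, grouped by the treatment labels. The tools fastp 0.20.0, BWA 0.7.12 and build hg38 are named, per the submitters' processing notes, which give MACS2 2.1.0 where the file headers give MACS 2.2.7.1. Peaks were called by the authors, per the file headers, in each library without a control, at a q threshold of 0.05, with 200 bp tags centred on the Tn5 cut. The deposited pileup is a signal, the extended tags over a summit without depth scaling, and the deposited fold enrichment is its ratio to local background. The chosen genes, lists and tests were set with earlier results of these data known.

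Regions of both lists overlapping by at least 1 bp were merged on chromosomes 1 to 22 and X, and the highest summit of each library was kept (Python 3.11.15, pandas 2.3.3, scipy 1.17.1). A region listed in 1 library alone has no height in the other, since lists hold only what passed the threshold. Relative ratios used 20 bins of summit tags, with narrow regions left out of the bin medians. The highest bin had no upper limit, so the tallest regions were set against much lower ones. Starts came from the RefSeq promoter table plus the outer 5′ end of each gene; 4162 of 19974 coding genes had no entry there, and both ends were used for them. Classes in order were start (within 1 kb), start of another coding gene, gene body and flank. Flank means outside the body of the gene itself, and bodies of other genes were not checked. The code was tested on simulated data. The genes named are the 10 with their strongest start and internal regions, the 4 highest and 4 lowest relative ratios away from starts with at least 40 tags, and the strongest regions of each library alone. Alternatives covered threshold, overlap, window, start width, narrow regions, list length, scaling, summit choice, the starts used and fold enrichment in place of height.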

Additional observations from a re-analysis of the deposited data

How the results depend on the processing

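No paired analysis was possible because either condition has a single library, and no replicate could be left out. Of 57 values under alternatives, 37 kept within the counting interval or 1.5 times a count, 16 moved past it, and 4 turned to the other side of 1. For the medians, that interval came from tags summed over the regions and rescaled around the median, so tall regions weigh most in it. Scaling by the median ratio of all shared regions lowered each ratio by construction. The median ratio became 1.19 over shared regions, 1.03 at starts and 1.3 within the genes, and the start ratios became 0.87 for HK2, 0.804 for PFKL and 0.95 for PFKM. By fold enrichment over local background the start ratios were 1.76 at SLC2A1, 1.99 at GPI and 1.35 at PFKFB3, below their counting intervals. With the summit nearest to the start the PFKL ratio was 0.89. The regions listed in 1 library alone were 24 lactate-only and 3 untreated-only at a −log10 p of at least 7, recomputed from the deposited pileup and fold, against 27 and 11 as reported. They were 16 and 5 within 10 kb. With the lactate list cut by fold enrichment to the length of the untreated list they were 10 and 20, which turned their order. By construction that cut can lower the lactate-only count and raise the untreated-only count, not the reverse. Shares over all regions were not taken under these settings, so whether the changes in counts are particular to these genes cannot be told. The cause of the other shifts was not tested. Taking starts from the promoter table alone, an alternative chosen after seeing the data, gave 1.58 at GPI, whose outer start is not in the table.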

Other observations

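The strongest lactate-only regions around the genes were the PFKL stretch of 31 tags, a region of 27 tags at a start of CCDC184 in the PFKM flank (chromosome 12, 48186182 to 48186518, hg38), the PFKFB4 and UCN2 region of 26 tags and one of 22 tags in the PFKFB3 flank (chromosome 10, 6141198 to 6141659). The last lay 161 bp from an untreated-only region of 14 tags. In the GPI flank a narrow lactate-only region of 22 tags (chromosome 19, 34318298 to 34318516) stood at the same height.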
